A study of Mus musculus with 5 samples.

Results

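The genes described here code for the mitochondrial respiratory chain and ATP synthase, the enzymes of the tricarboxylic acid (TCA) cycle with the pyruvate dehydrogenase complex, and the machinery that imports proteins into mitochondria. They were taken by gene symbol: a probe of the array counted as a member where its single annotated symbol began with or equalled a name of these families, such as Nduf, Sdh, Uqcr, Cox, Atp5, Idh, Mdh, Timm or Tomm. The rule found 122 of 21446 probes, which stand for 104 genes, and all 104 were measured on every array, among 8798 genes measured in all. The rule itself uses names and no measured value.

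Total RNA of adult C57/B6 mouse retina was set against total RNA of Swiss-Webster mouse cortex of postnatal day 1 (P1) on 5 two-colour Agilent arrays. Retina RNA carried the dye Cy5 and cortex RNA, the reference, carried Cy3 on every array, and each tissue was 1 pool from which all arrays were fed. The labels call the arrays technical replicates, and they form 1 group. Tissue, age, strain and dye changed together, so they cannot be told apart, and the p-values below cover only the error of repeated labelling and hybridisation of these pools, not the spread between animals. The tissues stand for what was pooled: a whole adult retina, with its photoreceptors, against a newborn cortex that was still growing. Less RNA per cell and fewer cells of a type cannot be told apart in such RNA.

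Oxidative phosphorylation passes electrons from NADH through complex I, or from succinate through complex II, to complex III, cytochrome c and complex IV, and the proton gradient so made drives ATP synthase. The TCA cycle supplies the electrons, and pyruvate dehydrogenase feeds it with acetyl-CoA. Nearly all of the proteins are made in the cytosol and enter through the TOM complex of the outer membrane and the TIM complexes of the inner one. Photoreceptors are known for inner segments packed with mitochondria and for a high use of both ATP and glucose.

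Values are given as log2 ratios, retina over cortex, as mean ± SD over n = 5 arrays, and a positive value means higher in retina. They were computed from the deposited values on the likely reading, which no source used here states, that these are log10 ratios with retina on top. A reversed direction would turn every sign. A gene is called higher or lower where its ratio differed from 0 in the limma test, at an adjusted p below 0.05 over all genes, and a second limma test asked for a ratio beyond a minimum of 2-fold. The first test also passes small ratios where they repeat well, and no dye swap was made. The labelled tissues were checked against their markers: all 6 measured photoreceptor genes were higher in retina, with ratios from 2.78 to 4.30, and all 11 measured genes of immature cortical neurons were lower, from -3.99 to -0.42. Of 10 muscle genes 4 were higher and 2 lower against 0, and none passed the 2-fold test. Of 3 red cell genes, the globin Hbb-b2 was lower past the 2-fold test at -1.66, while Hbb-y (0.04) and Slc4a1 (0.10) were near even. Ttr, the 1 measured gene of a pigment epithelium list, was lower past it at -1.40. A ratio to cortex in 1 gene does not tell how much pigment epithelium the retina pool held. The part of these cells in the members' ratios was not tested.

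Most RNAs of this machinery lay within 1.5-fold of even between the tissues, and 2 members passed the 2-fold test. Of the 104 members, 56 were higher in retina, 31 were lower and 17 did not pass the test against 0. Among all 8798 genes 37.0% were higher and 36.7% lower, 73.7% in either direction, against 53.8% and 29.8% of the members. The median ratio was 0.09 over the members and 0 over all genes, to 2 decimals. A mean ratio within 1.5-fold of even was found for 91 members, or 87.5%, and for 76.8% of all genes. The 2-fold test was passed by 2 members, or 1.92%, where it was passed by 6.63% of all genes (2.80% higher and 3.83% lower). Those members were Ndufv3, higher in retina, and Idh1, lower.

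**Figure D1:**
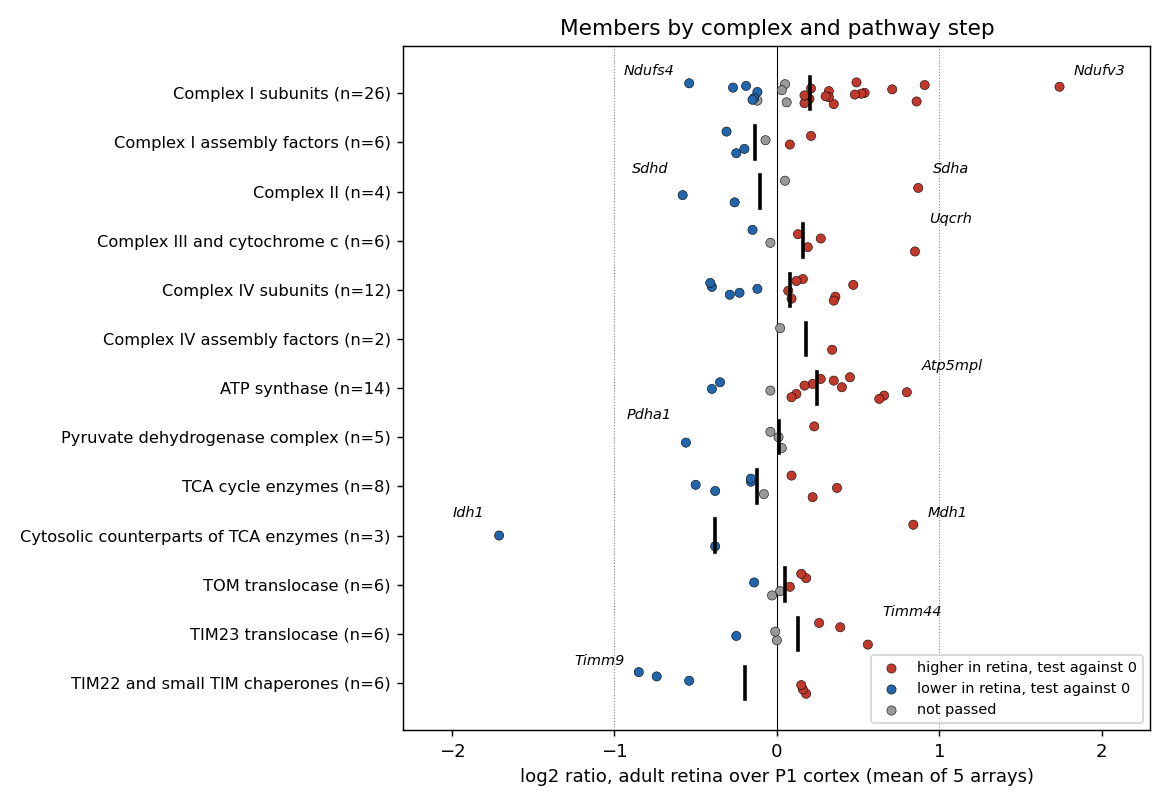
Mean log2 ratio of adult retina over P1 cortex (x axis) for each of the 104 members, by complex or pathway step (y axis). Points are genes, coloured by the limma test against 0, black bars are group medians and dotted lines mark 2-fold; Ndufv3 at 1.74 and Idh1 at -1.71 are the points outside them.

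The flavoprotein subunit gene Ndufv3 stood highest. It codes for a small accessory subunit of the tip of complex I where NADH binds. Its ratios on arrays 1 to 5 were 1.71, 1.85, 1.64, 1.68 and 1.82, a mean of 1.74 ± 0.09 or 3.34-fold higher in retina, with an adjusted p of 2.66e-05 in limma's 2-fold test. The arrays lay close together and all above 2-fold. It ranked 112th from the top among all genes, from a single probe.

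Idh1, the NADP-dependent isocitrate dehydrogenase of the cytosol, stood lowest. Its ratios were -1.59, -1.79, -1.57, -1.76 and -1.84, a mean of -1.71 ± 0.12 or 3.27-fold lower in retina, with an adjusted p of 9.01e-05 in limma's 2-fold test. Both of its probes were beyond 2-fold on the mean, at -1.95 and -1.47. It ranked 131st from the bottom among all genes. Idh1 makes NADPH and is not part of the TCA cycle in mitochondria.

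Nuclear genes of the respiratory chain are known targets of the factors NRF1, GABPA, YY1 and ESRRA, so the bases before the starts of members were searched for a core motif of each. The windows come from RefSeq on GRCm38.p6, with 250 bases before and 50 after a start, and 89 of the 104 members matched, with 100 windows. The letters searched, on both strands, were CGCATGCG for NRF1, CCGGAAGT for GABPA, AAGATGGC for YY1 and TCAAGGTCA for ESRRA. No motif contains another of these 4. The NRF1 letters were in 12 of the 100 member windows, in 3.53% of windows of the other measured genes and in 1.87% of all 32851 windows. The ESRRA letters were in 3 member windows, or 3.0%, against 0.187% of windows of the other measured genes and 0.423% of all. These 3 windows hold 2 sites, because Timm8b and Sdhd are read in opposite directions from neighbouring starts and their windows share the site at chr9:50603805-50603813. The 12 windows with the NRF1 letters hold 11 sites. The YY1 letters were in 10 member windows, against 4.11% and 2.75%, and the GABPA letters in 10, against 7.70% and 3.89%. These shares describe letters in a window and carry no test.

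The bases before the start are shown for Ndufv3 and Idh1, the members farthest from even, and for 5 members as examples of each motif, 5′ to 3′ and without the bases after the start, with motif letters in capitals. Ndufv3 lies at chr17:31519865-31520114 on the plus strand, and Idh1 at chr1:65186480-65186729 on the minus strand, where a second start of Idh1 is not shown. The bases shown for these 2 genes hold none of the 4 motifs. Cycs, the gene of cytochrome c, at chr6:50566570-50566819 on the minus strand, has the NRF1 letters 61 bases before its start. Atp5j, the ATP synthase subunit F6, at chr16:84834977-84835226 on the minus strand, has the NRF1 letters 147 and the YY1 letters 88 bases before one of its starts. Uqcrh, the hinge protein of complex III, at chr4:116075071-116075320 on the minus strand, has the GABPA letters reversed at 11 bases. The ESRRA letters stand 96 bases before the start of Timm8b, at chr9:50603651-50603900 on the plus strand, and reversed at 52 bases before that of the ring subunit gene Atp5g3, at chr2:73911327-73911576 on the minus strand.
Ndufv3: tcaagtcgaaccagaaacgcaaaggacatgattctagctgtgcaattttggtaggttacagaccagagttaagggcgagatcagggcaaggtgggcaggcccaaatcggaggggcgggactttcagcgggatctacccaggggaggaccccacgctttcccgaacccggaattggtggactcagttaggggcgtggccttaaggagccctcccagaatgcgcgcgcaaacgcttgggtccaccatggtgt
Idh1: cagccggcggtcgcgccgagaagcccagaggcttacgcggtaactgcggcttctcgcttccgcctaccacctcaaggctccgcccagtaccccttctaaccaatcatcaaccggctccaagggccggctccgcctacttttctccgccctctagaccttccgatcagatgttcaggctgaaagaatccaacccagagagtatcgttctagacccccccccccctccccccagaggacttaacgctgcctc
Cycs: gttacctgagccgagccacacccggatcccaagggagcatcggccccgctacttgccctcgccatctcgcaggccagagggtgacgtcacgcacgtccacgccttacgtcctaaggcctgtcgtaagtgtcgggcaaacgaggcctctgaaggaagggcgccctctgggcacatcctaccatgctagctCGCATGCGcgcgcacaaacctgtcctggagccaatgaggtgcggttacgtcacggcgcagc
Atp5j: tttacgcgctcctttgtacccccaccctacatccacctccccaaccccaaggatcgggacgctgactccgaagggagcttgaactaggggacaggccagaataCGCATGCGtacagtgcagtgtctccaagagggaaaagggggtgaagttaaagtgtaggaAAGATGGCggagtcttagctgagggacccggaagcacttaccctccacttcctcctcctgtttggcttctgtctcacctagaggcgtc
Uqcrh: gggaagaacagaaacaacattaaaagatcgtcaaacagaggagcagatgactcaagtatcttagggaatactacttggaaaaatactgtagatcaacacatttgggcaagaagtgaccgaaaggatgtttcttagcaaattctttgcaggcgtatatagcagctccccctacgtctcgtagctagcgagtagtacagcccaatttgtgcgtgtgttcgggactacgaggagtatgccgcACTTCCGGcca
Timm8b: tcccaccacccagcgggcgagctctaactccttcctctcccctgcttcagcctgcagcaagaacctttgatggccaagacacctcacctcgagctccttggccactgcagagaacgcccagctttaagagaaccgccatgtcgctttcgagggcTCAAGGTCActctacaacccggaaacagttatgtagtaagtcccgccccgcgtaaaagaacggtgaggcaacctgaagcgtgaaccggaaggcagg
Atp5g3: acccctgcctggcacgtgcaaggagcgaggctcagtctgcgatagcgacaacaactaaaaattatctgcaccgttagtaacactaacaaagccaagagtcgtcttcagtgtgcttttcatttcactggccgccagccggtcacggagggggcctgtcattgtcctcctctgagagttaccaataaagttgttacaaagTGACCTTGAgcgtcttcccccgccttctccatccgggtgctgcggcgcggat

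The ratios of members with and without a motif are given with no test of a difference, since few members had a motif. The median was 0.08 for the 11 members with the NRF1 letters, which ran from -0.54 to 0.45, and 0.08 for the 78 without, which ran from -1.71 to 1.74. For GABPA it was 0.12 in 10 members with the letters and 0.08 in 79 without, for YY1 0 in 10 and 0.09 in 79, and for ESRRA 0.18 in 3, which ran from -0.58 to 0.35, and 0.08 in 86. Ppargc1b, the gene of a coactivator that works with these factors, was the highest of 13 measured genes of mitochondrial biogenesis and DNA maintenance, at 1.36 ± 0.26. It was higher against 0 but did not pass the 2-fold test (adjusted p 0.0712 in limma), with 0.98 on array 2 and 1.64 on array 4. Esrra, named after its value was seen, stood at 0.75 ± 0.19, with 0.43 on array 2 and 0.91 on array 1. Nrf1 (0.10 ± 0.03), Gabpa (0.14 ± 0.15) and Yy1 (-0.01 ± 0.13), named for their motifs, were near even, and of these only Nrf1 passed the test against 0. The lowest of this list was the helicase gene Twnk at -0.37 ± 0.34, and the list had 4 genes higher, 5 lower and 4 not passed, with a median of -0.04.

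In complex I, the entry point for NADH, 16 of 26 subunit genes were higher in retina, 6 lower and 4 not passed. Without arrays 1 and 4, 3 were lower. The median was 0.20 and lay between 0.18 and 0.23 on the 5 arrays. Below Ndufv3, the accessory subunit genes Ndufa6 (0.91 ± 0.05), Ndufb11 (0.86 ± 0.06) and Ndufb3 (0.71 ± 0.13) were highest. Ndufa6 read 0.86, 0.95, 0.84, 0.94 and 0.93 on arrays 1 to 5, always short of 2-fold. Seen by role, the 5 measured core subunits, those shared with bacteria, had a median of 0.05, and the 21 accessory subunits 0.21; this split was made after the values were seen.

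The core subunits were split. Ndufv1, which binds NADH and FMN, was higher at 0.48 ± 0.04, and Ndufs8, another iron-sulfur subunit, at 0.30 ± 0.17. The iron-sulfur subunit Ndufv2, which sits beside Ndufv1, was lower at -0.14 ± 0.07, as was Ndufs3 at -0.12 ± 0.06. Ndufs1, the largest iron-sulfur subunit, was at 0.05 ± 0.09 and did not pass. The lowest of all subunit genes was Ndufs4, an accessory subunit of the NADH-binding arm, with -0.67, -0.50, -0.45, -0.52 and -0.58 on arrays 1 to 5. Its mean was -0.54 ± 0.09, or 1.46-fold lower, so that 2 accessory subunits of the same arm, Ndufv3 and Ndufs4, lay at the 2 ends of the complex. The other lower subunit genes were Ndufb6 (-0.27 ± 0.09), Ndufs6 (-0.19 ± 0.09) and Ndufa8 (-0.15 ± 0.07).

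Members of the middle range were mostly higher. They were Ndufb8 (0.54 ± 0.11), Ndufc1 (0.52 ± 0.05), Ndufa2 (0.49 ± 0.06), Ndufa13 (0.35 ± 0.06), Ndufa10 (0.32 ± 0.05), Ndufb10 (0.32 ± 0.05), Ndufa7 (0.21 ± 0.04), Ndufb9 (0.20 ± 0.02), Ndufa12 (0.17 ± 0.09) and Ndufb7 (0.17 ± 0.04). Ndufb2 (0.06 ± 0.09), Ndufs5 (0.03 ± 0.07) and Ndufc2 (-0.12 ± 0.13) did not pass. Of 6 genes for factors that help to assemble complex I, 2 were higher, 3 lower and 1 not passed, with a median of -0.14. Ndufaf3 was highest, at 0.20, 0.21, 0.22, 0.18 and 0.22, and Ndufaf6 lowest, at -0.35, -0.24, -0.36, -0.28 and -0.33. Ndufaf5 (-0.25 ± 0.04) and Ndufaf2 (-0.20 ± 0.14) were lower, Ndufaf4 (0.08 ± 0.03) was higher and Ndufaf1 (-0.07 ± 0.08) did not pass.

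Complex II, succinate dehydrogenase, was split, with 1 gene higher, 2 lower and 1 not passed. Its median, -0.11, was -0.26 with the lower probe of each gene and 0.05 without Sdhb. Sdha, the subunit that carries FAD and oxidises succinate, read 0.80, 0.87, 0.86, 0.82 and 1.00, a mean of 0.87 ± 0.08 or 1.83-fold higher. Sdhd, a membrane anchor, read -0.57, -0.83, -0.56, -0.66 and -0.26, a mean of -0.58 ± 0.21 or 1.49-fold lower. The 2 genes kept opposite signs on every array. The iron-sulfur subunit gene Sdhb was lower at -0.26 ± 0.03, though its probes read -0.63 and 0.10, and the other anchor, Sdhc, did not pass at 0.05 ± 0.06.

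Complex III and cytochrome c counted 4 genes higher, 1 lower and 1 not passed, with a median of 0.16. Uqcrh read 0.81, 0.83, 0.89, 0.87 and 0.84, a mean of 0.85 ± 0.03 or 1.80-fold higher. Uqcrc1, a core protein, stood at 0.27 ± 0.07, cytochrome c1, Cyc1, at 0.19 ± 0.06 and the Rieske protein Uqcrfs1 at 0.13 ± 0.04, while the second core protein Uqcrc2 did not pass at -0.04 ± 0.05. Cytochrome c itself, Cycs, was the lowest, with -0.17, -0.08, -0.08, -0.17 and -0.25, a mean of -0.15 ± 0.07, and it did not pass without arrays 1 and 4.

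In complex IV, cytochrome c oxidase, all 12 measured genes grouped as nuclear subunits or their isoforms passed the test against 0. Of these 7 were higher and 5 lower, but none by more than 1.5-fold on the mean. Without arrays 1 and 4, 4 were higher. The median was 0.08. It counts Cox6b2, Cox6a2 and Cox7a2l, each higher, beside their paired members Cox6b1, Cox6a1 and Cox7a2, each lower. A median without Cox6b2, Cox6a2 and Cox7a2l was not computed, and whether their RNA stood above background was not tested. Cox6c was highest at 0.40, 0.48, 0.56, 0.46 and 0.44, a mean of 0.47 ± 0.06. Cox5a, a subunit on the matrix side, was lowest at -0.47, -0.43, -0.41, -0.41 and -0.34, a mean of -0.41 ± 0.05 with 2 probes that agreed. Also lower were Cox6b1 (-0.40 ± 0.09), Cox7a2 (-0.29 ± 0.04), Cox4i1 (-0.23 ± 0.08) and Cox6a1 (-0.12 ± 0.07), and also higher were Cox6b2 (0.36 ± 0.23), Cox8a (0.35 ± 0.05), Cox7a2l (0.16 ± 0.05), Cox7b (0.12 ± 0.04), Cox5b (0.09 ± 0.03) and Cox6a2 (0.07 ± 0.02). Of 2 assembly genes, Cox14 was higher at 0.34 ± 0.05 and Cox10, which makes heme A, did not pass at 0.02 ± 0.07.

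ATP synthase had 11 of 14 genes higher, 2 lower and 1 not passed, and the median, 0.25, was the highest of the groups with 3 or more genes. With the lower probe of each gene 5 were lower. The highest gene was Atp5mpl, a small proteolipid of the membrane part, with 0.84, 0.79, 0.82, 0.91 and 0.66, a mean of 0.80 ± 0.09 or 1.74-fold. It was followed by Atp5h (0.66 ± 0.09) of the side stalk and Atp5d (0.63 ± 0.05) of the central stalk. The catalytic beta subunit, Atp5b, stood at 0.40 ± 0.04 with both probes above 0. The lowest was Atp5o, the OSCP subunit that ties the stalk to the catalytic head, with -0.36, -0.38, -0.36, -0.32 and -0.57, a mean of -0.40 ± 0.10. Atp5md, a small membrane subunit, was lower too, at -0.35 ± 0.14.

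Among the remaining ATP synthase genes, Atp5k (0.45 ± 0.12), Atp5g3 (0.35 ± 0.03), Atp5j (0.27 ± 0.10), Atp5l (0.17 ± 0.08) and Atp5j2 (0.09 ± 0.06) were higher. The alpha subunit Atp5a1 (0.12 ± 0.04) and the ring subunit Atp5g1 (0.22 ± 0.04) were called higher as means of probes with opposite signs, -0.10 and 0.35 for Atp5a1 and -0.35 and 0.80 for Atp5g1. With the lower probe alone both were lower in retina, at -0.10 and -0.35. Atp5pb did not pass at -0.04 ± 0.24. The inhibitor of ATP synthase, Atpif1, which is no subunit, was 2.28-fold lower in retina at -1.19 ± 0.07, with an adjusted p of 0.0107 in limma's 2-fold test.

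The TCA cycle enzymes were mixed. Of 8 measured genes 3 were higher, 4 lower and 1 not passed, with a median of -0.12. The median was -0.06 with genes kept that had values on at least 3 arrays and -0.05 with an exact 0 kept as a ratio of 0. Without arrays 1 and 4, 2 were lower. Citrate synthase, Cs, which opens the cycle, was lowest with -0.34, -0.65, -0.45, -0.62 and -0.45, a mean of -0.50 ± 0.13 or 1.41-fold lower. Fumarase, Fh1, stood at -0.38 ± 0.04, the malate dehydrogenase Mdh2 at -0.16 ± 0.07 and the succinyl-CoA ligase subunit Sucla2 at -0.16 ± 0.13. A second Mdh2 probe had values on 3 arrays, 0.19, 0.58 and -0.09, and was not used; with it Mdh2 stood at -0.04 and did not pass. Idh3b, a subunit of the NAD-dependent isocitrate dehydrogenase, was highest with 0.31, 0.41, 0.33, 0.37 and 0.42, a mean of 0.37 ± 0.05. Its partners were Idh3a (0.09 ± 0.04), higher, and Idh3g (-0.08 ± 0.09), not passed, and Ogdh of the oxoglutarate dehydrogenase complex was higher at 0.22 ± 0.09.

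The pyruvate dehydrogenase complex counted 1 gene higher, 1 lower and 3 not passed. Pdha1, the regulated alpha subunit of the first enzyme, read -0.68, -0.66, -0.63, -0.24 and -0.58, a mean of -0.56 ± 0.18 or 1.47-fold lower, with array 4 nearest to even. Pdhx, which binds the third enzyme, was highest at 0.22, 0.26, 0.16, 0.18 and 0.31, a mean of 0.23 ± 0.06. Pdhb (0.03 ± 0.05), Dlat (0.01 ± 0.07) and Dld (-0.04 ± 0.10) did not pass. Of 6 genes for kinases and phosphatases of this complex 3 were higher, 2 lower and 1 not passed, from the phosphatase Pdp1 at -0.95 ± 0.11 to the kinase Pdk3 at 0.37 ± 0.08.

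Differences between the group medians repeated on the arrays. The median of ATP synthase minus that of the TCA enzymes was 0.34 ± 0.09, from 0.21 to 0.47. That of complex I minus the TCA enzymes was 0.30 ± 0.07, and that of complex IV minus the TCA enzymes 0.17 ± 0.08, both above 0 on 5 of 5 arrays. Complex I and ATP synthase differed by -0.04 ± 0.02, and complex II minus the TCA enzymes was -0.01 ± 0.10, above 0 on 2 of 5 arrays. With genes kept that had values on at least 3 arrays, the medians of the gene means differed less: ATP synthase minus the TCA enzymes was 0.31 in place of 0.37, complex I 0.26 in place of 0.32 and complex IV 0.14 in place of 0.20. The complex IV median counts Cox6b2, Cox6a2 and Cox7a2l, and its difference from the TCA enzymes was not computed without them. All of these differences are descriptions with no test, and each group median rests on few genes whose ranges overlap.

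Cytosolic counterparts lay far from the mitochondrial enzymes in both directions. Mdh1, the cytosolic malate dehydrogenase of the malate-aspartate shuttle, read 0.88, 0.89, 0.79, 0.80 and 0.82, a mean of 0.84 ± 0.05 or 1.79-fold higher. Aco1, the cytosolic aconitase that also acts as an iron-regulatory protein, was lower at -0.38 ± 0.09. Among 7 genes for enzymes beside the cycle, the cytosolic malic enzyme Me1 was 2.72-fold higher at 1.44 ± 0.08. The cytosolic aspartate aminotransferase Got1, the shuttle partner of Mdh1, was 2.66-fold higher at 1.41 ± 0.09, and its mitochondrial counterpart Got2, named for that comparison, stood at 0.29 ± 0.11. Glutamate dehydrogenase, Glud1, was 2.24-fold lower at -1.16 ± 0.04. These 3 passed limma's 2-fold test, with adjusted p of 0.000186, 0.000395 and 0.00529, and of the 7 genes 4 were higher and 3 lower against 0.

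**Figure D2:**
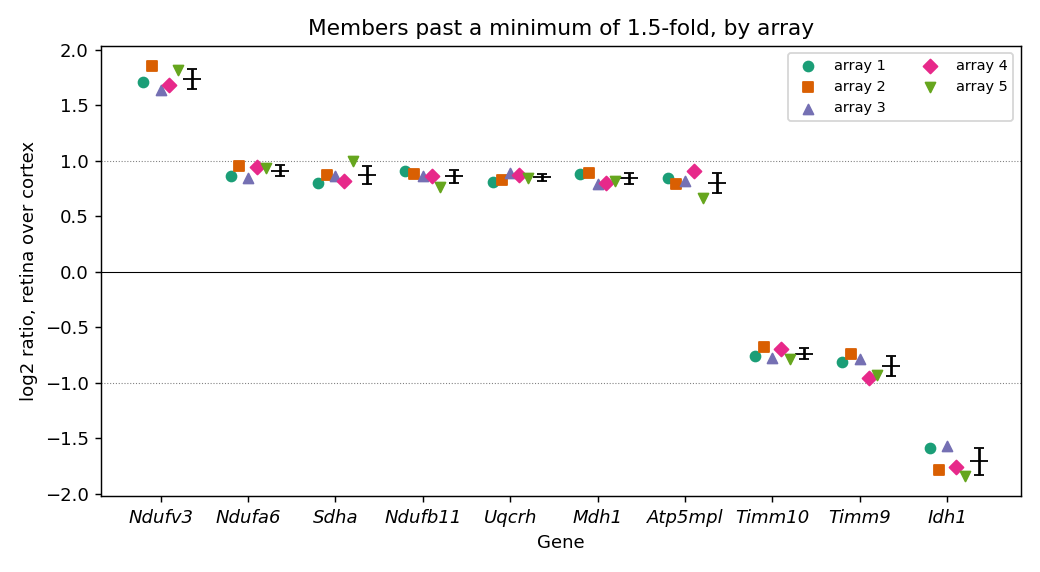
Log2 ratio of retina over cortex (y axis) on each of 5 arrays (symbols) for the members beyond a minimum of 1.5-fold in limma (x axis), with mean and SD as a black bar beside them. The 7 higher and 3 lower genes keep their sign on every array, and dotted lines mark 2-fold.

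With the minimum set to 1.5-fold, 10 members passed the limma test, 7 higher and 3 lower, where 16.0% of all genes passed it, 6.99% higher and 9.01% lower. Besides Ndufv3 and Idh1 these were Ndufa6, Sdha, Ndufb11, Uqcrh, Mdh1 and Atp5mpl on the higher side, and Timm9 and Timm10 on the lower side. The 7 higher genes came from complexes I, II and III, ATP synthase and the cytosolic malate dehydrogenase. Of these 3 came from the subunits of complex I, the largest group, with 26 of the 104 members.

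Paired members of a complex or step were compared on each array. Of 30 listed pairs 17 had both genes measured, and in all 17 the difference of the gene means had the same sign on 5 of 5 arrays. An exact sign-flip permutation test over 5 arrays cannot go below a two-sided p of 0.0625, which each pair reached, raw and adjusted over the 17 pairs, so no difference could pass 0.05. By the means over probes, the largest differences on the log2 scale were those of Sdha minus Sdhb (1.13 ± 0.09), Mdh1 minus Mdh2 (1.00 ± 0.07), Cox6b1 minus Cox6b2 (-0.76 ± 0.31), Pdha1 minus Pdhb (-0.59 ± 0.17) and Idh3b minus Idh3g (0.45 ± 0.12). Sdhb has probes of opposite sign, and by probe the first difference was 0.77 or 1.5, so its place above Mdh1 minus Mdh2 is not fixed. With both Mdh2 probes that second difference was 0.88. By single probes Atp5g1 minus Atp5g3 ran from -0.70 to 0.45, Tomm20 minus Tomm70a from -0.41 to 0.61 and Atp5a1 minus Atp5b from -0.59 to 0.04, so the sign of these 3 pairs is not settled. The Sdha minus Sdhb difference was 1.10, 1.10, 1.12, 1.06 and 1.30 on arrays 1 to 5, and that of Mdh1 1.08, 1.02, 0.99, 1.01 and 0.88. For Cox6b1, the common form, and Cox6b2, known from testis, it ran from -1.24 on array 1 to -0.42 on array 5. The sign repeated while the size varied. Only ratios were at hand, so whether Cox6b2 RNA stood above background was not tested. The subunits of the same enzyme Pdha1 and Pdhb were -0.62, -0.70, -0.70, -0.29 and -0.63 apart, and Idh3b and Idh3g 0.40, 0.65, 0.35, 0.40 and 0.46.

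**Figure D3:**
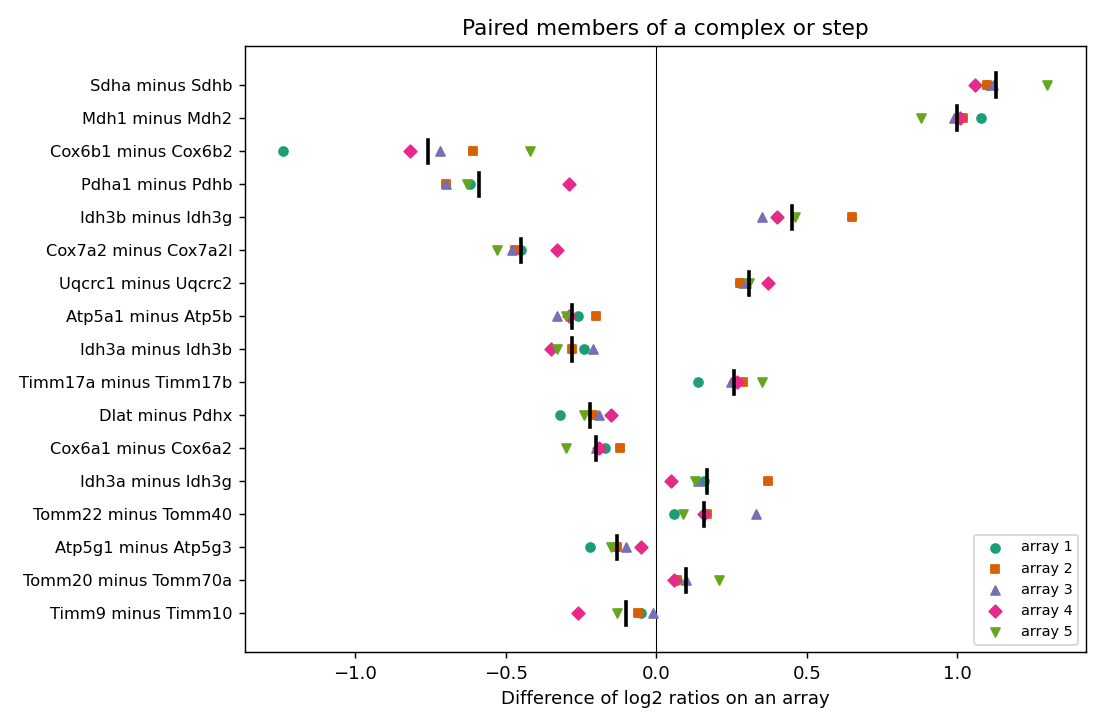
Difference of the log2 ratios of 2 members on each array (x axis; symbols are arrays, black bars means) for the 17 measured pairs (y axis). Every pair keeps its sign on 5 arrays, from 1.13 for Sdha minus Sdhb to -0.76 for Cox6b1 minus Cox6b2.

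In the import machinery, 9 of 18 genes were higher in retina, 5 lower and 4 not passed, and the lowest were small TIM chaperones. The small TIM chaperones escort carrier proteins across the space between the membranes, as rings built of Timm9 with Timm10 and of Timm8 with Timm13. Of the 4 measured, 3 were lower. Timm9 read -0.81, -0.74, -0.79, -0.96 and -0.93, a mean of -0.85 ± 0.09 or 1.80-fold lower. Timm10 read -0.76, -0.68, -0.78, -0.70 and -0.79, a mean of -0.74 ± 0.05 or 1.67-fold lower. Timm9 minus Timm10, the difference between these ring partners, was -0.10 ± 0.10 and below 0 on all 5 arrays.

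Timm13 was lower at -0.54 ± 0.05, and Timm8b, of the same ring, was higher with 0.18, 0.22, 0.22, 0.22 and 0.08, a mean of 0.18 ± 0.06. The channel of the carrier pathway, Timm22 (0.16 ± 0.03), and its partner Timm29 (0.15 ± 0.04) were higher. In the TIM23 translocase, which takes in proteins with a presequence, 3 of 6 genes were higher, 1 lower and 2 not passed. Timm44, which anchors the import motor, was highest with 0.54, 0.57, 0.59, 0.54 and 0.59, a mean of 0.56 ± 0.03. The channel Timm23 was lowest with -0.33, -0.24, -0.20, -0.28 and -0.18, a mean of -0.25 ± 0.06. Timm21 (0.39 ± 0.03) and Timm17a (0.26 ± 0.05) were higher, and Timm17b (0.00 ± 0.03) and the receptor Timm50 (-0.01 ± 0.10) did not pass.

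The TOM genes lay close to even. Of 6 genes 3 were higher, 1 lower and 2 not passed, all between -0.14 and 0.18. The median was 0.05, and -0.07 with the lower probe of each gene, when 3 were lower. The receptor Tomm20 was highest at 0.15, 0.16, 0.18, 0.14 and 0.25, but its probes read -0.33 and 0.69, and with the lower one alone it was lower in retina. The pore Tomm40 was lowest at -0.07, -0.12, -0.32, -0.12 and -0.09, and it did not pass without array 4. Tomm7 (0.15 ± 0.04) and the receptor Tomm70a (0.08 ± 0.02) were higher, and Tomm22 (0.02 ± 0.03) and the cytosolic cochaperone Tomm34 (-0.03 ± 0.02) did not pass. Of 12 genes for import partners and processing peptidases, 3 were higher, 7 lower and 2 not passed, from the metaxin Mtx1 (-0.72 ± 0.44) to the peptidase subunit Pmpcb (0.62 ± 0.07).

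Further mitochondrial genes were mixed as well. Of 14 genes for chain assembly and cofactors outside the rule, 7 were higher, 5 lower and 2 not passed, with the assembly factor Surf1 highest at 0.84 ± 0.05 and Atpif1 lowest. Of 10 metabolite carriers and porins 3 were higher, 3 lower and 4 not passed, from the porin Vdac1 (-0.78 ± 0.23) to the ADP/ATP carrier Slc25a5 (0.69 ± 0.08). Of 16 genes of mitochondrial dynamics and quality control 8 were higher and 3 lower, with the prohibitin Phb2 at -0.75 ± 0.10 and the kinase Pink1 at 1.35 ± 0.05, or 2.55-fold higher (adjusted p 0.000181 in limma's 2-fold test).

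The members were set beside glycolysis, the other route to ATP, and beside mitochondrial ribosomal proteins. Of 13 measured glycolysis genes 11 were higher and none lower against 0 in limma, with 9 beyond the 2-fold test and a median of 1.37. Of 55 mitochondrial ribosomal protein genes 20 were higher, 18 lower and 17 not passed, with a median of 0.01. The members, with a median of 0.09 and a range from -1.71 to 1.74, lay nearer to the second list by the median, and no test between lists was made. The median over all genes was likewise near, at 0 to 2 decimals. By calls, 53.8% of the members were higher, against 36.4% of the ribosomal list and 37.0% of all genes. Repeats of the members were tight, with a median SD between arrays of 0.0595, against 0.0852 over all genes, and 84.6% kept 1 sign on all arrays, against 73.5% of all genes.

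**Figure D4:**
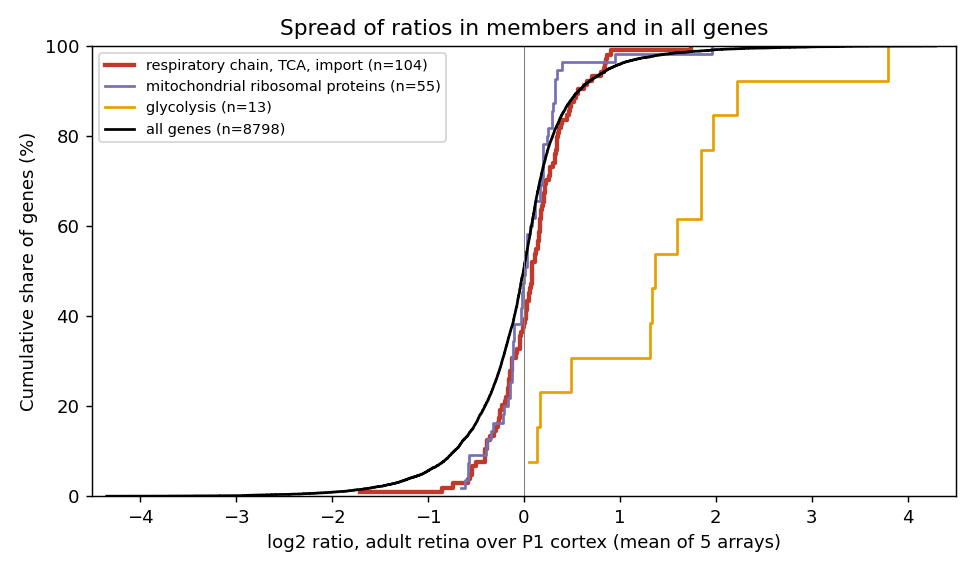
Cumulative share of genes (y axis, %) by mean log2 ratio of retina over cortex (x axis) for the 104 members, 55 mitochondrial ribosomal protein genes, 13 glycolysis genes and all 8798 genes. The medians are 0.09 for the members, 0.01 for the mitochondrial ribosomal proteins and 0 for all genes, to 2 decimals. Glycolysis, with a median of 1.37, lies to the right.

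Where several probes measured 1 member they did not always match. Of 16 such genes, 10 had probes with means of opposite sign, and the median range was 0.35 log2, up to 1.15 for Atp5g1. They were Atp5a1, Atp5g1, Atp5pb, Cox10, Dlat, Ndufaf4, Ogdh, Sdhb, Tomm20 and Tomm22, and their values above are means over such probes. Probe sequences were not used here, so whether a probe also binds related transcripts was not tested.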

How the data were processed

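Total RNA of 1 retina pool and 1 cortex pool was measured on 5 two-colour arrays. The deposited table holds 1 log10 ratio per probe and array; the base is inferred from values that stop at 2 and -2, and the authors' background correction, dye normalization and centring are stated in no source used here. Per the labels, retina carried Cy5 and cortex Cy3. Arrays have no read depth; 5 arrays set the precision.

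The deposited values times 3.32 are log2 ratios, and an exact 0 was read as no value. Of 21446 probes, 11782 were named by gene identifier in RefSeq GRCm38.p6. A gene's value was the mean of its probes with values on all 5 arrays (8798 genes, 11500 probes). Each gene was fitted with an intercept in limma 3.58.1 (R 4.3.3), tested two-sided against 0 (eBayes) and against a minimum of 2-fold (treat), with Benjamini-Hochberg adjustment over all genes and a threshold of 0.05. The procedure was tested on simulated data. Members, gene lists and pairs were chosen with earlier results of these data known. Values on each array are given for members past the 2-fold test, the 2 highest and lowest members, the highest and lowest of each group of 3 or more and the 5 pairs with the largest difference of gene means, which were tested by exact sign flips; the genes outside the members are the highest and lowest of their list or past the 2-fold test, except where said otherwise. Alternatives covered centring, scaling, missing values, the reading of 0, the probe rule, the prior, array weights, the log base, the minimum fold and arrays left out.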

Additional observations from a re-analysis of the deposited data

Results flagged for a closer look

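In 8 of the 104 members 1 array lay far from the other 4, by the gap to the nearest of them over the whole range (Dixon). Chance alone gives about 5% of such groups. The share over all genes was not counted, so these 8 are not read as a trait of the members. On array 5, Ndufb3 read 0.48 (0.74 to 0.80 on the others), Atp5k 0.24 (0.47 to 0.53) and Atp5o -0.57 (-0.38 to -0.32). On array 1, Tomm7 read 0.09 (0.15 to 0.18), Pdhb -0.06 (0.05 to 0.07) and Cox6b1 -0.55 (-0.40 to -0.34). Tomm40 read -0.32 on array 3 (-0.12 to -0.07), and Pdha1 -0.24 on array 4 (-0.68 to -0.58), where 1 of its 2 probes read 0.29.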

How the results depend on the processing

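Without 1 array at a time, 52 to 57 members were higher and 29 to 31 lower against 0, beside 2955 to 3126 and 2979 to 3137 of all genes; 219 to 232 of all genes were then higher and 309 to 335 lower in the 2-fold test, with 1 member on each side. Fits without arrays 1 and 4 (46 higher, 23 lower) and without genes whose probes differ in sign (51 and 30) were chosen after seeing the data. A minimum of 1.5-fold gave 7 members higher and 3 lower, and 615 and 793 of all genes. Reading the values as log2 left 0 members on either side of the 2-fold test and 3 and 4 genes in all, which follows from the smaller ratios. The probe rule took a member's middle probe, or the lower of 2, in place of the mean. It turned Atp5g1 (-0.35), Tomm20 (-0.33), Atp5a1 (-0.10) and Ndufaf4 (-0.14) to lower in retina. With 2 probes this rule can only move a value down, so that direction was set in advance. The higher probe was not tried, and why the probes of a gene differ was not tested. On the given strand alone, 4 member windows held the GABPA letters and 1 the ESRRA letters. The other counts over all members stayed within 1.5 times. By group, 26 values moved and 428 did not, and of the pair differences 21 moved and 149 did not. No paired analysis was possible because the arrays form 1 group and each carries both pools.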
